A study of Mus musculus with 9 samples.

Results

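The genes described here, except Prm3, code for proteins that replace histones in the sperm nucleus and for testis forms of histones. They are the protamines Prm1 and Prm2, the transition proteins Tnp1 and Tnp2, the spermatid linker histones Hils1 and H1fnt, and the spermatocyte and spermatogonial histones Hist1h1t and Hist1h2ba. Prm3 is named for its place in the protamine gene cluster. All were chosen by name, as 9 of the 23074 genes in the count table, matched through their Ensembl identifiers. RNA-seq was performed on whole decapsulated testes of mice aged 29 to 30 days (P30) on a mixed C57BL/6, 129/Sv and FVB/N background, from 5 wild type (WT) males and 4 Rfx2-/- males. RFX2 is a transcription factor of spermatocytes and early spermatids, and the knockout allele lacks a single exon that codes for a large part of its DNA-binding domain, removed in all tissues with a Cre transgene. Per the study's methods, its line of mixed background retained the neomycin cassette of the targeting vector. A testis also holds Sertoli, Leydig and peritubular cells beside germ cells of every stage, and in such bulk samples fewer cells of a type and less RNA per cell cannot be told apart.

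In round spermatids the genome is still packed by histones, some of them testis variants. As the nucleus elongates, transition proteins displace the histones and are in turn replaced by protamines, small arginine-rich proteins that condense the DNA of the sperm head. The mRNAs of protamines and transition proteins are made in round spermatids and stored untranslated for days, so that an mRNA level says little about the protein. The linker histones HILS1 and H1FNT (also called H1T2) belong to spermatids too, whereas H1t, the product of Hist1h1t, is the linker histone of pachytene spermatocytes and TH2B, the product of Hist1h2ba, replaces canonical H2B from early germ cells on.

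Prm1, Prm2, Prm3 and Tnp2 form a cluster of 17.9 kb on chromosome 16 (GRCm38, chr16:10787936-10805839, GENCODE M21), all on the minus strand and in the order Prm1, Prm2, Prm3, Tnp2 in the direction of transcription. Tnp1 lies alone at chr1:73015074-73015909 on the minus strand, Hils1 at chr11:94967593-94968456 on the plus strand inside the span of Sgca, H1fnt at chr15:98255986-98257293 on the minus strand, and both histone cluster genes lie on chromosome 13, Hist1h1t at chr13:23695814-23696725 on the plus strand and Hist1h2ba at chr13:23933773-23934156 on the minus strand. All 9 are short, with merged exons of 384 to 1308 bases. Prm1 and Prm2 have 3 exon blocks each in this annotation, Tnp1 and Tnp2 have 2, and the other 5 genes have 1. Prm1 and Tnp1 overlap antisense transcripts, and since the sources used here do not state that strand was counted, reads of the 2 strands cannot be told apart there or at Hils1.

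Promoter sequences of all 9 genes were found in the RefSeq set for GRCm38.p6. The 120 bases before the RefSeq start are shown for Prm1, Prm2, Tnp1 and Tnp2, whose mean levels were lower in Rfx2-/- testes. They are also shown for the spermatid genes Prm3 and Hils1, whose means differed less, to set the letters of both groups side by side. The split is by group means, and 0 of the 9 genes passed both limits given below with all 9 libraries. Without Rfx2-/- replicate 2 and WT replicate 3, Prm3 was lower too (log2 fold change -0.51). The regions, all read 5′ to 3′ on the gene's own strand, are chr16:10796824-10796943 (minus strand) for Prm1, chr16:10792106-10792225 (minus) for Prm2, chr1:73015900-73016019 (minus) for Tnp1, chr16:10788656-10788775 (minus) for Tnp2, chr16:10790915-10791034 (minus) for Prm3 and chr11:94967473-94967592 (plus) for Hils1. Capitals mark TGACNTCA, a form of the cyclic AMP response element (CRE) bound by factors of the CREM family, or TATAAA, the TATA box, on either strand. In GENCODE, longer transcripts of Prm1 and Prm2 begin upstream of these starts, and the first exon of 1 Prm1 transcript covers part of the sequence shown.
Prm1: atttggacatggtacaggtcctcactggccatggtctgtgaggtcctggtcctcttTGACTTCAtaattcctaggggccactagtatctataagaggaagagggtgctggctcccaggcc
Prm2: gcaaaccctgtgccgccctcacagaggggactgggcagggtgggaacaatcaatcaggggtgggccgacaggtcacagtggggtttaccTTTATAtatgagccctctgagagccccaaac
Tnp1: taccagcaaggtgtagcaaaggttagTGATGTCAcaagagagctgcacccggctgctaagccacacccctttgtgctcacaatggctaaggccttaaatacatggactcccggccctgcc
Tnp2: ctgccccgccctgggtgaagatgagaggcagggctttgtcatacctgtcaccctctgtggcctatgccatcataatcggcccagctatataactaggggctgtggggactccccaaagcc
Prm3: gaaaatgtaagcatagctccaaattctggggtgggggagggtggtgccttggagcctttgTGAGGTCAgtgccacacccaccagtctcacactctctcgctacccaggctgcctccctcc
Hils1: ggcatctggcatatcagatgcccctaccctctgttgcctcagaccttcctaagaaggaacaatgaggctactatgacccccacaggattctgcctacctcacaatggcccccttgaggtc

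TGACNTCA was present in Prm1 (positions -64 to -57 from the start), in Tnp1 (-94 to -87, minus strand) and in Prm3 (-60 to -53, minus strand), and in 7.49% of the 32851 RefSeq promoters searched over the same 250 bases on both strands. The canonical CRE, TGACGTCA, which is one case of TGACNTCA, was in none of the 9 genes and in 1.55% of promoters. TATAAA was present in Prm2 (-31 to -26, minus strand) and in Hist1h2ba (-94 to -89, a sequence not shown), against 12.4% of promoters. The X-box, the palindromic site bound by RFX factors, was in none of the 9 promoters and in 0.709% of all, and its arm GTTGCC was found in Hils1 alone among them (-88 to -83), against 10.4% of all promoters. Thus a CRE-like stretch was found both in genes with lower mRNA levels (Prm1, Tnp1) and in Prm3. A match of letters is not a binding site, and a missing match says only that these letters are not in the window.

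The libraries held 13574764 to 15193330 counts, except Rfx2-/- replicate 1 with 28800855, and 15613 genes passed the filter on low counts, among them all 9 genes described here. Levels are CPM (each gene's count relative to the library total, scaled by TMM factors), on which 3 counts correspond to 0.0995 to 0.234 CPM. Rfx2 itself, counted over its remaining exons too, averaged 548.8 CPM over the 5 WT libraries (SD 54.4) and 146.0 over the 4 Rfx2-/- libraries (SD 59.7), and the difference of -1.91 ± 0.28 (log2, SE) passed the test (edgeR adjusted p = 0.000781). In 2 libraries short genes stood apart. Rfx2-/- replicate 2 had a median log2 deviation of 0.70 from the other Rfx2-/- libraries over the 1445 tested genes with under 1.5 kb of exons, against -0.0031 over all genes, and WT replicate 3 had -0.22 over the same short genes against -0.0034 over all. In WT replicate 3, Prm1, Prm2, Prm3, Tnp1, Tnp2, Hils1 and H1fnt lay further down than that class, by -0.54 (Hils1) to -1.09 (Tnp1). Hist1h1t (0.04) and Hist1h2ba (-0.04) did not. Since all 9 genes fall in this length class, results for several of them are also given without these libraries.

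By the level per length in WT, Tnp2 stood first with 4366 ± 1266 CPM per kb of exon (SD, n = 5), followed by Tnp1 with 3779 ± 1137, Prm1 with 3058 ± 926 and Prm2 with 3041 ± 861. These 4 neighbours differed by less than their spread between libraries. That spread is largely shared by the abundant genes of a library. Here and below it therefore does not say whether the order holds within each library. The length used is that of the merged exons of all GENCODE transcripts of a gene, 571 bases for Prm1 and 894 for Prm2. It includes the longer transcripts of these 2 genes, and a shorter length would raise their values. Their places among the 4, in both genotypes, therefore depend on the annotation. Hils1 (488.2 ± 96.8 CPM per kb), H1fnt (395.4 ± 89.9) and Prm3 (273.6 ± 63.1) followed at a distance, with overlapping spreads between neighbours in this order but not between Hils1 and Prm3, and Hist1h2ba (3.63 ± 0.90) and Hist1h1t (2.44 ± 0.43) were last. In Rfx2-/- testes the first place stayed with Tnp2 (2554 ± 904 CPM per kb, SD, n = 4), ahead of Tnp1 (1742 ± 837), Prm2 (1423 ± 469) and Prm1 (1320 ± 472), and Hils1 (651.6 ± 213.4) came closer to these 4 than in WT. In CPM without division by length, Prm2 ranked 6th and Tnp2 8th of all genes in WT testes, Prm1 19th and Tnp1 24th, and in Rfx2-/- testes they ranked 26th, 22nd, 89th and 86th. Together the 9 genes took 0.57% to 1.12% of all counts in the WT libraries and 0.417% to 0.868% in the Rfx2-/- libraries.

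The low levels of Hist1h1t and Hist1h2ba rested on 14 to 37 and 14 to 35 counts per library. Like most histone cluster genes they give transcripts that largely lack a poly(A) tail, as a rule of this gene class. The study's methods name the Illumina TruSeq RNA Sample Preparation Kit and the manufacturer's protocol, without stating a poly(A) selection step. Whether that protocol kept such transcripts was not tested. The ranks, fold changes and ratios of Hist1h1t and Hist1h2ba therefore describe captured transcripts and may not be their levels in the testis. In Hist1h2ba, 38.2% of the 50-base windows of the transcript also occur in other Hist1h2b genes, and the authors discarded reads that map to several places, so its count is uncertain.

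**Figure D1:**
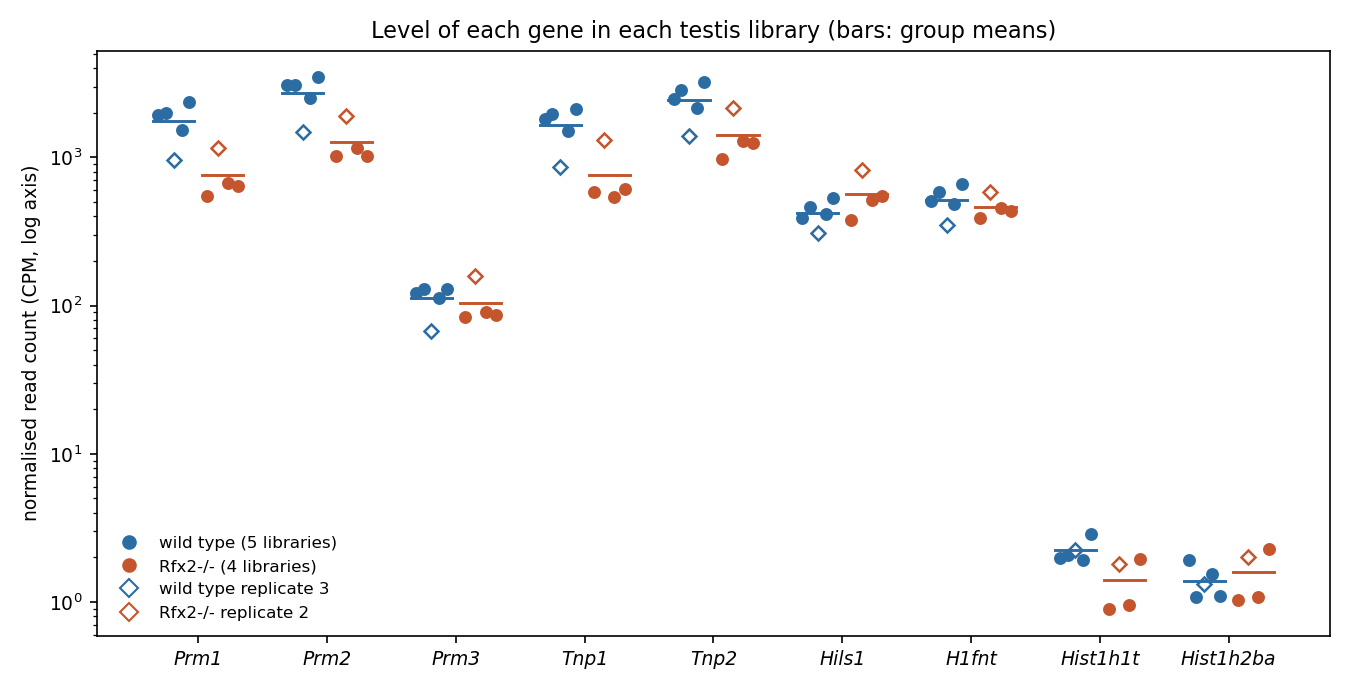
Normalised read counts (CPM, log axis) of the 9 genes in the 5 WT libraries (blue) and the 4 Rfx2-/- libraries (orange), with group means as bars and WT replicate 3 and Rfx2-/- replicate 2 as open diamonds. In Prm1, Prm2, Tnp1 and Tnp2 the open diamond of WT lies below the other WT points and that of Rfx2-/- above the other Rfx2-/- points, and without them the groups separate.

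The protamines Prm1 and Prm2, the final packing proteins of sperm DNA, lay well below their WT means in Rfx2-/- testes. Prm1 had 1918, 1977, 960.4, 1523 and 2352 CPM in WT replicates 1 to 5 and 551.5, 1151, 667.7 and 644.8 CPM in Rfx2-/- replicates 1 to 4, a mean of 1746 ± 529 (SD, n = 5) against 753.7 ± 269.4 (SD, n = 4), or 43.2%. The groups overlapped only through WT replicate 3, which lay below Rfx2-/- replicate 2. The log2 fold change was -1.21 ± 0.28 (SE, edgeR quasi-likelihood test, Benjamini-Hochberg adjusted p = 0.0156).

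Prm2 had 3074, 3065, 1483, 2511 and 3462 CPM in WT and 1015, 1891, 1163 and 1017 CPM in Rfx2-/- testes, 46.8% of the WT mean. Again WT replicate 3 alone lay within the Rfx2-/- range, and Rfx2-/- replicate 2 stood above the other libraries of its genotype. The log2 fold change was -1.10 ± 0.27 (SE, edgeR adjusted p = 0.021).

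The transition proteins came next. Tnp1, which codes for the shorter and more abundant transition protein, had 1814, 1945, 863.2, 1503 and 2132 CPM in WT and 583.8, 1308, 540.1 and 613.6 CPM in Rfx2-/- testes, 46.1% of the WT mean, a log2 difference of -1.12 with an SE of 0.32 (edgeR adjusted p = 0.0416). Rfx2-/- replicate 2 was 2.26 times the mean of the other 3 Rfx2-/- libraries, so that the spread in Rfx2-/- testes (48.0% of the mean) was the widest among the 9 genes in either genotype. Tnp2, which codes for the zinc-binding transition protein, had 2476, 2835, 1398, 2144 and 3240 CPM in WT and 980.1, 2137, 1295 and 1247 CPM in Rfx2-/- testes, 58.5% of the WT mean, and its log2 fold change of -0.77 ± 0.27 (SE) did not pass at 0.05 (edgeR adjusted p = 0.0927). Here too WT replicate 3 was the lowest WT library and Rfx2-/- replicate 2 the highest Rfx2-/- library.

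The third gene of the protamine cluster behaved differently. Prm3, a small acidic protein of the spermatid cytoplasm that is named for its place in the cluster, had 121.5, 129.4, 67.8, 112.1 and 130.2 CPM in WT and 83.6, 158.1, 90.4 and 86.0 CPM in Rfx2-/- testes. The lowest library of all was WT replicate 3 and the highest was Rfx2-/- replicate 2, and apart from these the WT libraries lay above the Rfx2-/- libraries. With all 9 libraries the log2 fold change was -0.10 ± 0.24 (SE, edgeR adjusted p = 0.803). Its sign turned to 0.05 when libraries were scaled by total counts alone, to 0.03 without Rfx2-/- replicate 1 and to 0.01 without Rfx2-/- replicate 4, while it was -0.37 without Rfx2-/- replicate 2, so no direction is given for all 9 libraries.

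**Figure D2:**
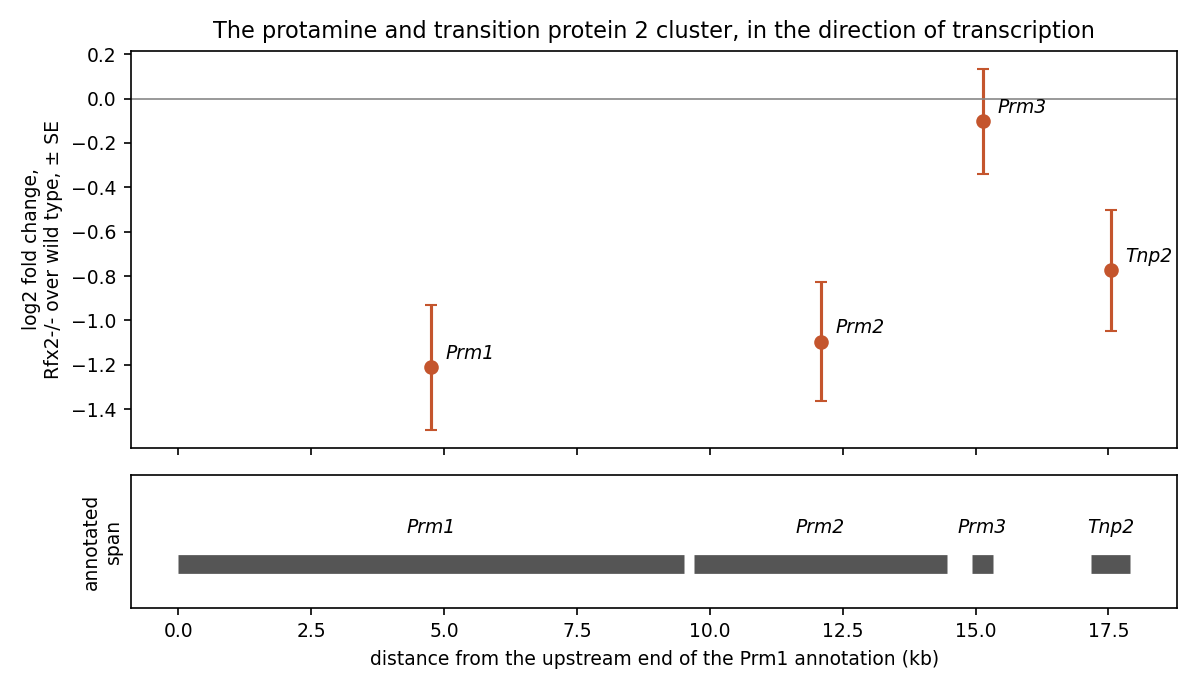
Log2 fold change of Rfx2-/- over WT with its SE (upper panel) for the 4 genes of the chromosome 16 cluster, placed by distance in kb along the direction of transcription, with the annotated gene spans as bars (lower panel). Prm3 (-0.10) lies between Prm2 (-1.10) and Tnp2 (-0.77) on the chromosome and nearest to 0 in its change.

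Of the spermatid linker histones, Hils1 had 391.0, 462.8, 307.5, 415.2 and 532.5 CPM in WT and 375.1, 815.9, 513.8 and 547.3 CPM in Rfx2-/- testes. Its Rfx2-/- mean was 134% of WT, with the groups overlapping, and the difference did not pass the test (log2 fold change 0.42 ± 0.22 SE, edgeR adjusted p = 0.246). The difference was 0.18 without Rfx2-/- replicate 2 and 0.09 with WT replicate 3 left out as well. Sgca, the muscle gene on the opposite strand whose span holds Hils1, had 15.4 ± 2.0 CPM in WT (SD, n = 5) and 21.4 ± 5.9 in Rfx2-/- testes (SD, n = 4). H1fnt had 504.7, 581.5, 348.4, 487.3 and 664.2 CPM in WT and 390.1, 580.5, 454.1 and 431.2 CPM in Rfx2-/- testes, every Rfx2-/- library within the WT range (log2 fold change -0.16 ± 0.20 SE, edgeR adjusted p = 0.63, and -0.28 without Rfx2-/- replicate 2).

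For the histone cluster genes the values were 1.99, 2.09, 2.26, 1.92 and 2.88 CPM of Hist1h1t in WT and 0.896, 1.80, 0.953 and 1.96 CPM in Rfx2-/- testes, with Rfx2-/- replicate 4 alone inside the WT range (log2 fold change -0.69 ± 0.29 SE, edgeR adjusted p = 0.145). Hist1h2ba had 1.91, 1.08, 1.33, 1.55 and 1.09 CPM in WT and 1.03, 2.004, 1.09 and 2.29 CPM in Rfx2-/- testes, with full overlap (0.18 ± 0.31 SE, edgeR adjusted p = 0.735, 0.05 without Rfx2-/- replicate 2 and -0.01 without Rfx2-/- replicate 4).

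At an adjusted p of at most 0.01 and a change over 2-fold, edgeR called 0 of the 9 genes lower, against 3.68% of all genes tested, and 0 higher, against 0.826% (0 higher also at an unadjusted p under 0.05 and by DESeq2). The study's methods give a p limit of 0.01 without stating an adjustment, and at an unadjusted p of at most 0.01 with the same fold limit 3 of 9 were lower (Prm1, Prm2 and Tnp1), against 4.8% of all genes. At an adjusted p of at most 0.05, the same 3 of 9 were lower, against 7.31% of all genes. At an unadjusted p under 0.05, 5 of 9 were lower (also Tnp2 and Hist1h1t), against 13.7%. From its own RNA-seq, analysed with DESeq, the study states that Tnp1 and Tnp2 mRNAs are not reduced without RFX2, and names no age there. The median log2 fold change of the 9 was -0.69, against 0.03 over all genes tested. In 0 of the 9 genes did the genotypes separate without overlap, against 15.9% of all genes in either direction.

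Those calls depended on the libraries and on the tool. DESeq2 on the same 9 libraries called 3 of 9 lower, against 4.44% of all genes: Prm1 (adjusted p = 0.000389), Prm2 (0.000992) and Tnp1 (0.00566). Without Rfx2-/- replicate 2, edgeR called 4 of 9 lower, against 4.01% of all genes, with log2 fold changes of -1.49 ± 0.24 (SE) for Prm1, -1.35 ± 0.23 for Prm2, -1.51 ± 0.25 for Tnp1 and -1.04 ± 0.23 for Tnp2. Without WT replicate 3, Prm1 (-1.33, edgeR adjusted p = 0.00582) and Prm2 (-1.21, 0.00599) were called.

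With the smooth trend of each library with exon length removed, which took 0.55 to 0.70 (log2) off the 9 genes in Rfx2-/- replicate 2, Prm1, Prm2 and Tnp1 were called, 3 of 9 against 4.09% of all genes. Their log2 fold changes were then -1.37 ± 0.18, -1.26 ± 0.19 and -1.30 ± 0.19 (SE), and that of Tnp2 was -0.94 ± 0.17, past the p limit (edgeR adjusted p = 0.00307) but under 2-fold. With both Rfx2-/- replicate 2 and WT replicate 3 left out, 4 of 9 were called, against 4.66% of all genes, and 6 of 9 were lower with no overlap, against 16.6%. The other 2 of these 6 were Prm3 (log2 fold change -0.51 ± 0.10 SE, edgeR adjusted p = 0.00237) and H1fnt (-0.40 ± 0.12 SE, adjusted p = 0.0398), both under 2-fold. In the summed CPM of the 9 genes, WT replicate 3 was the lowest WT library (5432 against 8699 to 12520). Rfx2-/- replicate 2 was the highest Rfx2-/- library (8045 against 3981 to 4726). Leaving both out therefore favoured calls and separation in these genes. In each of these settings Prm1, Prm2 and Tnp1 had larger differences than Tnp2, and Tnp2 a larger one than Prm3 and H1fnt. Leaving out Rfx2-/- replicate 2 widened all 4 differences, and the part of RNA length or cell content in that library's values was not tested.

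**Figure D3:**
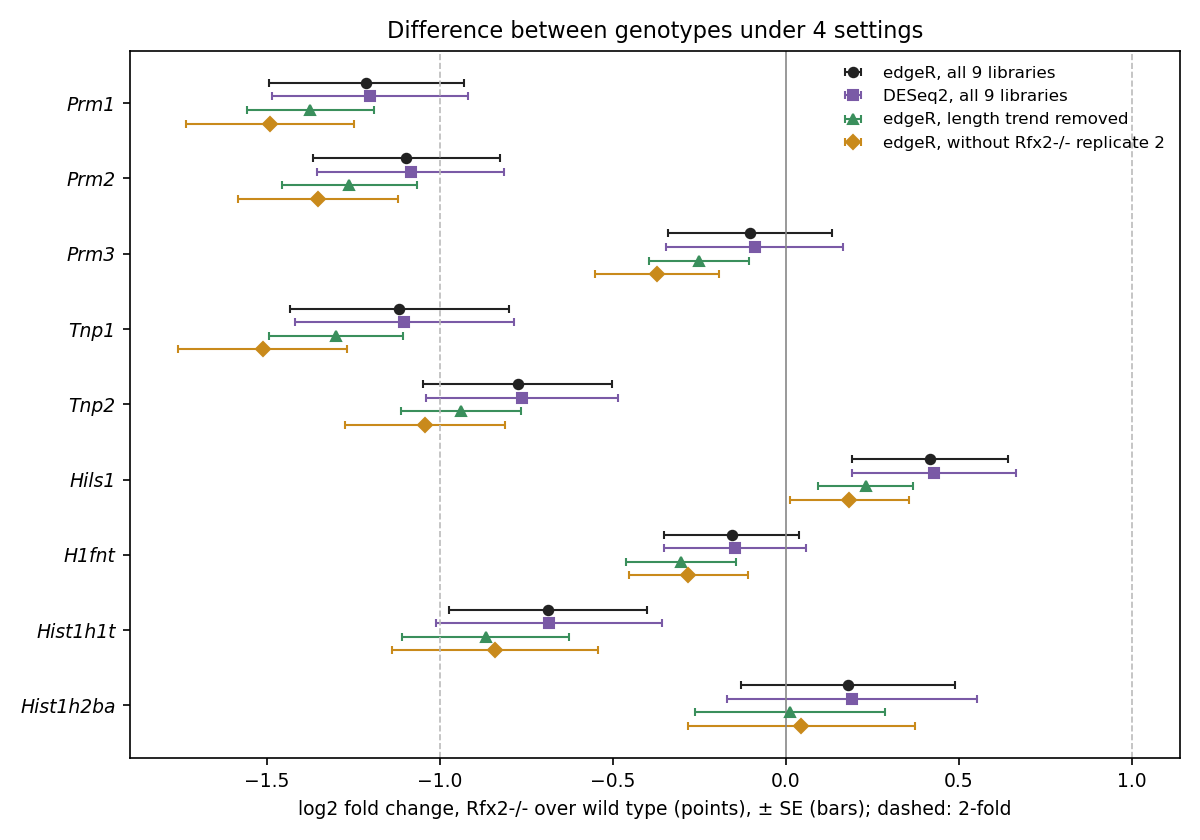
Log2 fold change of Rfx2-/- over WT (points) with SE (bars) for each gene under 4 settings, with dashed lines at 2-fold. Prm1, Prm2 and Tnp1 lie beyond 2-fold lower in all 4, Tnp2 crosses it only without Rfx2-/- replicate 2, and Prm3, Hils1, H1fnt, Hist1h1t and Hist1h2ba lie between the lines.

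A ratio of 2 genes within a library needs no scaling factor, and a shift of a library that both genes share equally cancels in it. The shifts were not equal. In Rfx2-/- replicate 2 the log2 deviation from the other Rfx2-/- libraries ran from 0.45 (H1fnt) to 1.18 (Tnp1). In WT replicate 3 that from the other WT libraries ran from 0.04 (Hist1h1t) to -1.09 (Tnp1). For Prm1 and Tnp1 no difference was detectable at this number of libraries. Their ratio was 1.06, 1.02, 1.11, 1.01 and 1.10 in WT and 0.945, 0.880, 1.24 and 1.05 in Rfx2-/- testes, a difference in mean log2 ratio of -0.06 (exact permutation test, two-sided, p = 0.603). Prm1 to Prm2 was 0.607 to 0.680 in WT and 0.543 to 0.634 in Rfx2-/- testes (difference -0.12, exact permutation p = 0.0794). Tnp1 to Tnp2 was 0.733, 0.686, 0.617, 0.701 and 0.658 in WT and 0.596, 0.612, 0.417 and 0.492 in Rfx2-/- testes, every Rfx2-/- library below every WT library. The difference was -0.37 (exact permutation p = 0.0159, the smallest that 126 arrangements of 5 and 4 libraries can give, adjusted over 5 pairs p = 0.0397). The gap between the nearest libraries of the genotypes in this ratio, 0.612 against 0.617, was small.

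Among the same 5 pairs, Prm1 to Hist1h1t did not pass (difference -0.47, exact permutation p = 0.222), although it reached an adjusted exact permutation p of 0.0476 without WT replicate 3 (-0.68). Hist1h1t to Hist1h2ba differed by -0.89 (exact permutation p = 0.0159, adjusted p = 0.0397), from 1.04 to 2.64 in WT to 0.857 to 0.900 in Rfx2-/- testes. This last ratio rests on 14 to 37 counts of each gene.

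All 36 pairs of the 9 genes were then compared, a step added after the values had been seen. In 20 of the 36 the genotypes did not overlap, each with an exact permutation p of 0.0159, which is 0.0286 after adjustment over the 36 pairs. Prm1, Prm2 and Tnp1 formed 3 pairs among themselves, of which 0 separated. Each of these 3 genes against Prm3, Hils1 or H1fnt gave 9 pairs, of which 9 separated, all with the first gene lower relative to the second in Rfx2-/- testes. These groups follow the fold changes of the same libraries, so their separation, and that of the Tnp2 pairs below, adds no independent support. The share of separated pairs among pairs of all genes is not given here.

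Tnp2 lay between those groups. Relative to Tnp2, Prm1 was lower in Rfx2-/- testes by 0.43, Prm2 by 0.31 and Tnp1 by 0.37 (log2), with 3 of 3 pairs separated, and Tnp2 was itself lower relative to Prm3 (0.66), H1fnt (0.64) and Hils1 (1.16), again with 3 of 3 separated. The widest change was that of Prm1 to Hils1, 4.90, 4.27, 3.12, 3.67 and 4.42 in WT against 1.47, 1.41, 1.30 and 1.18 in Rfx2-/- testes. Prm2 to its chromosomal neighbour Prm3 was 25.3, 23.7, 21.9, 22.4 and 26.6 in WT and 12.1, 12.0, 12.9 and 11.8 in Rfx2-/- testes. In these 2 ratios the Rfx2-/- libraries lay close together, replicate 2 included, and WT replicate 3 was the lowest WT library.

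Among Prm3, Hils1 and H1fnt, Hils1 to H1fnt rose by 0.52 without overlap, Prm3 to H1fnt differed by 0.02 (exact permutation p = 0.857), and Prm3 to Hils1 by -0.50 (p = 0.0317, adjusted 0.0519 over the 36 pairs in the exact permutation test). Pairs share genes, so the 36 comparisons are not independent of each other.

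**Figure D4:**
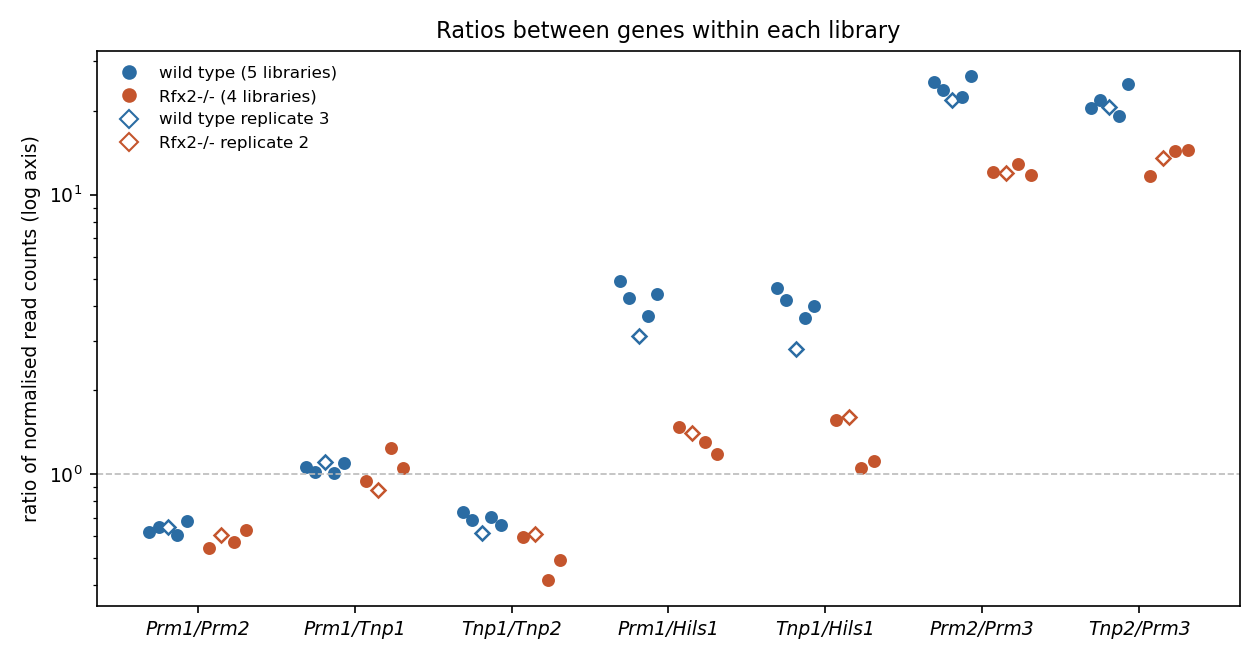
Ratios of normalised read counts (log axis) for 7 pairs of genes within each WT library (blue) and Rfx2-/- library (orange), with WT replicate 3 and Rfx2-/- replicate 2 as open diamonds. Prm1/Prm2 and Prm1/Tnp1 overlap between genotypes, and in the other 5 pairs every Rfx2-/- library lies below every WT library.

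The genes with the most similar profiles over the 9 libraries were found by the root mean square (RMS) difference of log2 CPM centred on the WT mean, among genes with a mean of at least 50 counts. This is a description over libraries that share depth and composition. Nearest to Prm1 were Prm2 (RMS 0.106), 4930571K23Rik (0.110) and Azin2 (0.120). Nearest to Prm2 was 1110017D15Rik (0.0793), followed by 4930571K23Rik and Prm1. Tnp1 had Prm1 (0.136), Prm2 (0.148) and 4930571K23Rik (0.182) as its nearest genes, so that these 3 abundant mRNAs were near each other although Tnp1 lies on another chromosome.

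The other genes had other neighbours. Those of Tnp2 were Tmem270 (RMS 0.0720), 1700001K19Rik and Spert. Those of Prm3 were Ubl4b (0.0821), 1700016H13Rik and Klk1b8, those of Hils1 Scp2d1 (0.0665), Cypt4 and Galntl5, and those of H1fnt Fam71d (0.0697), Txndc2 and Prss55. Profiles of Hist1h1t (Smtnl1, Rsph3a and Adam5) and Hist1h2ba (E230029C05Rik, Psenen and Mrps11) were noisier, with means of 27.6 and 22.9 counts per library.

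Among 16 tested genes for other histone variants, 1 was called lower and 0 higher (edgeR). Of these, 13 of 16 had a log2 fold change above 0, with a median of 0.29 against 0.03 over all genes tested. Rfx2-/- replicate 2 stood apart here too, with a summed CPM of 1275 for this list. The other Rfx2-/- libraries had 672.0 to 876.0 and the WT libraries 712.6 to 790.5. The part of that library in the upward lean was not tested. The gene called lower was H2afy2, which codes for macroH2A2, with 5.50 to 7.37 CPM in WT and 2.29 to 2.93 CPM in Rfx2-/- testes (-1.32 ± 0.18 SE, edgeR adjusted p = 0.000334). At the other end stood H1fx, a linker histone of many tissues, with 41.5 to 54.1 CPM in WT and 65.2 to 92.5 CPM in Rfx2-/- testes (0.67 ± 0.15 SE, edgeR adjusted p = 0.0119), without overlap but under the limits.

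Of 57 other genes of the histone clusters, 13 passed the filter and 1 was called, Hist1h4a, which codes for a histone H4. It had 5.42, 4.87, 3.65, 5.23 and 6.62 CPM in WT and 1.56, 1.67, 1.36 and 1.503 CPM in Rfx2-/- testes, with no overlap, on 20 to 85 counts (-1.75 ± 0.21 SE, edgeR adjusted p = 0.000155). The highest of the 13 was Hist3h2a (0.40 ± 0.21 SE, edgeR adjusted p = 0.225).

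Of the 19 genes for factors of the histone to protamine exchange (histone acetylation and ubiquitylation, chaperones and kinases), edgeR and DESeq2 called 0. At an unadjusted p under 0.05 (edgeR) 3 of 19 were lower and 2 of 19 higher, against 13.7% and 13.9% of all genes. The lowest was Tssk6, a testis kinase needed for normal exchange of histones for protamines, at -0.80 ± 0.28 on the log2 scale (SE, edgeR adjusted p = 0.0888). The highest was Camk4, a kinase that phosphorylates PRM2, with 42.3 to 61.5 CPM in WT and 84.7 to 116.0 CPM in Rfx2-/- testes. The groups did not overlap, and the change of 0.83 ± 0.15 (SE) passed the p limit but not the fold limit (edgeR adjusted p = 0.00301). Without Rfx2-/- replicate 2, 1 of the 19 was called lower.

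Among 19 regulators of transcription, storage and translation of these mRNAs, 1 was called lower and 0 higher (edgeR), and the median log2 fold change was -0.03. Gtf2a1l, the germ cell form of the general factor TFIIA, had 242.9 to 342.0 CPM in WT and 110.9 to 127.6 CPM in Rfx2-/- testes, without overlap (-1.27 ± 0.14 SE, edgeR adjusted p = 7.64e-05). Taf7l, a germ cell subunit of TFIID, was the highest of the list (0.47 ± 0.18 SE, edgeR adjusted p = 0.116). Of the 4 tested among 5 genes within 200 kb of the chromosome 16 cluster 0 were called by edgeR or DESeq2. They ran from Clec16a (-0.25 ± 0.24 SE) to Rmi2 (0.41 ± 0.17 SE, edgeR adjusted p = 0.138). At an unadjusted p under 0.05 (edgeR) 1 of 4 was higher (Rmi2), against 13.9% of all genes.

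Markers of germ cell stages and somatic cells, by the summed CPM of each list, moved as follows. The 14 markers of elongating spermatids, none of them among the 9 genes, summed to 6165 to 11430 in WT and 5911 to 7428 in Rfx2-/- testes, with 13 of 14 below 0 and a median log2 fold change of -0.48. Of these 1 of 14 was called lower. At an unadjusted p under 0.05 (edgeR) 7 of 14 were lower, against 13.7% of all genes tested, and 0 were higher. Without WT replicate 3 and Rfx2-/- replicate 2 the sums did not overlap, at 9012 to 11430 in WT and 5911 to 6724 in Rfx2-/- testes, as for Prm1, Prm2, Tnp1 and Tnp2. The 12 round spermatid markers summed to 1759 to 2644 and 1822 to 2751, with a median of 0.26 and 1 called lower. At an unadjusted p under 0.05 (edgeR) 1 of 12 was lower and 3 of 12 were higher, against 13.7% and 13.9% of all genes. WT replicate 3 had the lowest sum of its genotype in both lists, and Rfx2-/- replicate 2 the highest of its genotype in both.

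For the other lists edgeR and DESeq2 called 0 genes, and the counts at an unadjusted p under 0.05 are given beside the sums, against 13.7% lower and 13.9% higher of all genes tested. Late spermatocyte markers summed to 3730 to 5231 CPM in WT and 3730 to 6537 in Rfx2-/- testes (2 of 7 lower), meiotic prophase markers to 1850 to 2178 and 2011 to 2974 (4 of 10 higher), and spermatogonial markers to 158.2 to 186.3 and 145.8 to 216.6 (0 of 8). Sertoli cell markers summed to 1205 to 1505 and 1225 to 1752 (1 of 8 higher), Leydig cell markers to 741.0 to 952.1 and 699.7 to 1082 (1 of 7 higher), peritubular markers to 201.8 to 229.0 and 154.4 to 292.5 (1 of 5 higher), and macrophage markers to 101.7 to 140.2 and 119.9 to 212.2 (2 of 7 higher). With all 9 libraries the sums of the genotypes overlapped in all 9 marker lists, and with WT replicate 3 and Rfx2-/- replicate 2 left out in all but that of elongating spermatids. In 0 of these lists was a marker at 0 in any library, and the part of cell content in the differences of the 9 genes was not tested.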

How the data were processed

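RNA from whole testes of 9 mice was sequenced by the authors as single reads on TruSeq libraries. Per the labels and the study's methods, the authors mapped reads with STAR 2.4 to GRCm38, discarded reads with more than 1 location, and deposited raw counts per gene from featureCounts 1.4.6, leaving out reads that overlap exons of several genes. Base calls were made with CASAVA 1.8.2, as listed in the submitters' processing notes. Of the gene identifiers 96.6% were found in GENCODE M21. The mice are separate animals by the study's methods.

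From these counts, edgeR 4.0.16 in R 4.3.3 was run with TMM factors, its own filter on low counts, robust quasi-likelihood F tests and Benjamini-Hochberg adjustment over 15613 genes. A gene was called at an adjusted p of at most 0.01 and a change over 2-fold, and SE is the fold change over the root of F. Depth was 13574764 to 28800855 counts per library, and limits from counts cover counting error only. Gene ratios were compared by exact two-sided permutation over the 126 arrangements of the 9 libraries. Alternatives were DESeq2 1.42.0, other scaling, no filter, a length trend removed (lowess, span 0.3, over the 15481 genes with a length), other limits, and leaving out libraries. The scripts were tested on simulated data. The replicates carry no shared number, and no batch is given in the labels.

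The 9 genes and all lists were chosen with earlier results of these data known. Of 208 list entries 204 were matched to the table. Besides the 9 genes, the text names Rfx2, called genes and the lowest and highest of each pathway list, and for each of the 9 the 3 genes of nearest profile. Sgca was named after its values were seen. Protein sequences were not used here. Within 1 genotype the smallest chi-square per gene between libraries was 4.32, above sampling noise, so no library was counted as a duplicate.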

Additional observations from a re-analysis of the deposited data

Results flagged for a closer look

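In 7 of 56 groups of 4 or 5 libraries examined, 1 library lay farther from the others than the 95% limit of Dixon's gap ratio, where chance gives about 2.8. Rfx2-/- replicate 2 stood above the other 3 Rfx2-/- libraries in Prm2 (1891 CPM against 1015 to 1163), Prm3 (158.1 against 83.6 to 90.4) and Tnp1 (1308 against 540.1 to 613.6). The same library was low in the summed CPM of the genes within 200 kb of the protamine cluster, at 72.0 against 146.1 to 151.3. Most of that gap lay in Clec16a (45.7 CPM against 109.9 to 124.5), and Litaf was lowest there too (13.4 against 15.4 to 25.4). Socs1 was highest in that library (7.48 against 4.28 to 5.45) and Rmi2 lay within the range of the others (5.34 against 4.12 to 5.38). In the log2 ratio of Prm1 to Hist1h1t, WT replicate 3 had 8.73 against 9.64 to 9.92 in the other WT libraries, and Rfx2-/- replicate 4 had 8.36 against 9.27 to 9.45 in the other Rfx2-/- libraries. WT replicate 3 also had the highest sum of Sertoli cell markers among WT libraries, 1505 CPM against 1205 to 1244. The cause of these gaps was not tested.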

How the results depend on the processing

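Among the 9 genes, Prm1, Prm2 and Tnp1 kept a log2 fold change below 0 in every alternative and were called lower by DESeq2 (-1.20, -1.08 and -1.10), with the length trend removed (-1.37, -1.26 and -1.30), with the trend removed and Rfx2-/- replicate 2 left out, an alternative chosen after seeing the data (-1.39, -1.28 and -1.38), and, at their values of -1.21, -1.10 and -1.12, under an unadjusted p limit of 0.01 or an adjusted limit of 0.05 without a fold limit. With Rfx2-/- replicate 2 and WT replicate 3 both left out, Prm1 (-1.64), Prm2 (-1.51), Tnp1 (-1.67) and Tnp2 (-1.19) were called. The count of genes called lower was thus 3 under the first 5 of these alternatives and 4 under the last, against 0. It stayed at 0 with DESeq2 size factors, with total counts and without a filter on low counts. It was also 0 in the edgeR test against a 2-fold change (unadjusted p = 0.0866 for Prm1, 0.158 for Prm2 and 0.156 for Tnp1). With 1 library left out it was 0 to 4, and above 0 only without Rfx2-/- replicate 2 or WT replicate 3. With 1 library left out, log2 fold changes ran from -1.49 to -1.05 for Prm1, -1.35 to -0.97 for Prm2, -1.51 to -0.95 for Tnp1, -1.04 to -0.60 for Tnp2, -0.37 to 0.03 for Prm3 and -0.01 to 0.40 for Hist1h2ba. Prm3 turned to 0.050 with total counts, a scaling that moved the median of all genes from 0.03 to 0.16, to 0.026 without Rfx2-/- replicate 1 and to 0.015 without replicate 4, and Hist1h2ba to -0.011 without replicate 4. The ratio of Prm1 to Tnp1 turned to 0.015 without Rfx2-/- replicate 2 and 0.032 with both libraries left out. The ratios of Tnp1 to Tnp2 (-0.45 to -0.26 with 1 library left out, -0.48 with both) and Hist1h1t to Hist1h2ba (-1.05 to -0.71, -0.88 with both) kept their direction, and after adjustment over the 5 pairs both passed 0.05 without WT replicate 3 (exact permutation p = 0.0476) but not without any other library or with both left out (0.0714 to 0.0952), as fewer libraries raise the smallest exact permutation p. Prm1 to Hist1h1t ran from -0.68 to -0.22 and Prm1 to Tnp1 from -0.15 to 0.01 with 1 library left out. Lists moved by 1 or 2 calls: exchange factors 1 lower with both libraries left out and 0 to 1 with 1 left out, elongating spermatid markers 2 lower without a filter, by DESeq2 and with the length trend removed, 3 with both left out and 1 to 2 with 1 left out, other histone cluster genes 2 lower with the length trend removed or both left out and 1 to 2 with 1 left out, and peritubular markers 0 to 1 higher with 1 left out. The cause of these shifts was not tested. Of all values and settings compared, 600 kept their direction and their side of the limit. Of the rest, 26 passed a limit missed in the main result, 18 fell short of one passed there, 6 changed sign and 20 moved otherwise. No paired analysis was possible because the labels give the genotypes no shared replicate numbers. Depth limits Hist1h1t and Hist1h2ba, at 14 to 37 counts.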
